A study of Mus musculus with 16 samples.

Results

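Immunity-related GTPases (IRGs) are large GTP-binding proteins that mouse cells make in response to interferon. The 7 genes described here, Irgm1, Irgm2, Igtp, Iigp1, Tgtp1, Tgtp2 and Ifi47, were taken by symbol from the 13085 genes of a normalized RNAseq table, and all 7 were listed once. The table covers 16 libraries of C57BL/6 mouse monocytes, with 2 libraries for each combination of genotype (NFAM1+/+ or NFAM1-/-), stimulus and time. NFAM1-/- mice carry a germline deletion of exons of Nfam1, which encodes an ITAM-bearing receptor, so the gene is lost in all cells and not in monocytes alone. Monocytes were left unstimulated or were pretreated for 1 h with IFN-γ and then given 1 µg/mL MegaCD40L, a multimer of the CD40 ligand, and RNA was collected at 6 or 24 h. None of these libraries received 1 agent without the other, so the effects of the 2 agents cannot be told apart in any comparison below. The sample labels name blood monocytes and an IFN-γ dose of 100 µg/mL, whereas the methods describe bone marrow monocytes and a lower dose for RNAseq. The study names fewer mice than there are libraries for either genotype, so some libraries share mice, and neither the labels nor the methods say which. The fit treats the libraries as independent, and p-values measure the spread between them, which may be technical.

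IRG proteins guard the membranes around intracellular pathogens such as Toxoplasma gondii and Chlamydia. They fall into a pair of classes, named after residues of the nucleotide-binding loop. The GMS proteins, encoded by Irgm1, Irgm2 and Igtp (also called Irgm3), sit on host membranes and hold the other class in its inactive, GDP-bound state. The GKS proteins, encoded by Iigp1 (Irga6), Tgtp1 and Tgtp2 (Irgb6) and Ifi47 (Irgd), are the effectors, which bind GTP, assemble on the pathogen vacuole and disrupt it. Loading of the effectors needs the ATG8 conjugation machinery of autophagy and is accompanied by guanylate-binding proteins, the other family of interferon-inducible GTPases. IFN-γ reaches these genes through its receptor, the kinases Jak1 and Jak2 and promoter elements known as gamma-activated sites (GAS), and through interferon regulatory factors, which bind interferon-stimulated response elements (ISRE).

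Of the 7 genes, 6 lie on chromosome 11 in 2 groups. In GENCODE vM21 on GRCm38, Irgm1 (48861968 to 48871683, minus strand), Tgtp1 (48985327 to 48994172, minus), Tgtp2 (49057194 to 49064206, minus) and Ifi47 (49076587 to 49096974, plus) occupy 235.0 kb. Igtp (58199556 to 58207591, plus) and Irgm2 (58199618 to 58222782, plus) lie 9.1 Mb away within 23.2 kb. Iigp1 (60376027 to 60392634, plus) is on chromosome 18. The submitters' processing notes name GRCm39, and the deposited table holds no coordinates, so these positions serve only to place the genes. All 7 are protein-coding. Irgm2 and Igtp share 162 nucleotides of annotated exon on the same strand, and Tgtp1 shares 223 nucleotides with Gm12185, another IRG-family gene.

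Tgtp1 and Tgtp2 are near copies. Of all distinct 101-base stretches in the annotated coding transcripts of Tgtp1, 70.1% also occur in Tgtp2, and 80.2% of those of Tgtp2 occur in Tgtp1. The read length was 101 bases at each end, so many reads could belong to either gene. How such reads were counted is not stated, so the levels of the pair and the split between them are uncertain. The shared portion was 2.95% for Irgm2 and 5.06% for Igtp, and no 101-base stretch of Irgm1 or Iigp1 was found in another gene.

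RefSeq promoter sequences (GRCm38.p6) were available for 6 of the 7 genes and are shown here because the stimulus contained IFN-γ, whose signal acts at GAS and ISRE letters. The 250 bases before each start were searched on both strands for GAS as TTCNNNGAA and for ISRE as GAAANNGAAA. Both motifs were found in Irgm2, Igtp, Tgtp1 and Tgtp2, and in each of these the ISRE started 11 bases after the start of the GAS, so the motifs stood side by side without overlap. Irgm1 held 2 overlapping ISRE matches and no GAS, and Ifi47 held neither. All 30 bases shown for Irgm1 lie within exons annotated in GENCODE vM21. The 60 bases shown for each of Irgm2, Igtp, Tgtp1 and Tgtp2 hold no annotated exon. The windows below run 5′ to 3′ on the gene's strand, with the letters of the motifs in capitals. They are Irgm1 chr11:48871428-48871457 (minus strand), Irgm2 chr11:58214883-58214942 (plus), Igtp chr11:58199492-58199551 (plus), Tgtp1 chr11:48992294-48992353 (minus) and Tgtp2 chr11:49064253-49064312 (minus).
Irgm1: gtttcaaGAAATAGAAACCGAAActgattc
Irgm2: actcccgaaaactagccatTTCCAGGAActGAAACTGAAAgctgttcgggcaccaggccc
Igtp: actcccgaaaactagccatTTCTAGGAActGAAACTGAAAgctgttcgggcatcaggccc
Tgtp1: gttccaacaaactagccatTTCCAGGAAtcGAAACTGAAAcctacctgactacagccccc
Tgtp2: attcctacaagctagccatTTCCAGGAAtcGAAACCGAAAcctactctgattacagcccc

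Over all 32851 promoters of the same length, 7.02% held the GAS letters, 2.98% the ISRE letters and 0.332% both. The windows of Irgm2 and Igtp were identical at 58 of 60 bases, those of Tgtp1 and Tgtp2 at 46 of 60, and pairs across the classes at 39 to 43 of 60. Once this arrangement had been seen, the joined letters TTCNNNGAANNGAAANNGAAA were searched in every promoter. They occurred in 5 of 32851 promoters (0.0152%), those of Irgm2, Igtp, Tgtp1, Tgtp2 and Gm12185. The annotated 5′ end of Gm12185 (48992226, minus strand) lies within the Tgtp1 promoter record (48992197 to 48992496, minus strand). The matches of Tgtp1 and Gm12185 may therefore be the same bases, listed under both genes. A match describes letters only, and binding was not measured.

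The libraries held between 48295939 and 88514341 reads on the listed genes. The deposited values are log2 CPM, the usual read count scaled to library size, and levels below are given as CPM after undoing the log. Nfam1, counted over the whole gene, was at 408 and 432 CPM in NFAM1+/+ and 299 and 321 CPM in NFAM1-/- unstimulated libraries at 6 h. It did not separate the genotypes in stimulated libraries at 6 h (129 and 133 against 127 and 135 CPM). For 4 of the 24 h libraries (replicates 44, 46, 56 and 58), the genotype named in the title and that in the tag disagree. By title, Nfam1 was at 463 and 495 against 391 and 441 CPM without stimulus and at 252 and 271 against 200.9 and 223 CPM with it. By the tag the genotypes overlapped, and the groups used here follow the title. All 10 monocyte markers read were listed, with Lyz2 at 2667 to 23260 CPM, whereas the markers Ms4a1, Cd3d, Cd3e and all 5 natural killer cell markers were not among the listed genes. The listed B cell markers Cd79a and Cd79b summed to at most 17.4 CPM, reached in unstimulated libraries at 24 h, and the T cell markers Cd4, Cd8a and Lck to at most 6.99 CPM in the same condition. Summed neutrophil markers were at 72.9 to 361 CPM at 6 h. At 24 h they stood at 544 to 942 CPM without and 124 to 212 CPM with the stimulus.

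Without stimulus the 7 genes were expressed at low levels, and the regulators accounted for most of their reads. At 6 h the 7 genes together had 59.7 to 91.8 CPM. Irgm1 alone supplied 50.8% to 56.2% of the reads of these 7 genes, and Iigp1 1.66% to 2.32%. Other IRG-family genes, such as 9930111J21Rik2 at 14.6 to 16.8 CPM, are not counted in these shares. Levels were also divided by the exon length of annotated coding transcripts. This took in 2305 of 5810 annotated exon bases for Irgm1 and 3128 of 5823 for Iigp1. Over all annotated exon both would stand lower, and the order on that length was not computed. Per kb of coding-transcript exon, Irgm1 was highest at 14.6 to 20.2 CPM per kb. Ifi47 (3.25 to 5.82), Igtp (3.12 to 5.54) and Irgm2 (2.56 to 3.65) followed with overlapping ranges. Tgtp2 (0.341 to 1.06) and Iigp1 (0.345 to 0.681) lay below these and overlapped each other, and Tgtp1 was lowest at 0.121 to 0.311 CPM per kb. Even so the 4 libraries held 39 to 112 reads for Tgtp1 and 82 to 240 for Iigp1.

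IFN-γ plus CD40L raised all 7 genes at 6 h, by 68.7-fold to 1930-fold. Calling a gene required a change of 2-fold or more with an adjusted p under 0.05, and 19.1% of the 12782 genes tested were called higher. Scaled by each library's own read total, the log2 fold changes were 5.37 to 10.18 in place of 6.10 to 10.91, and all 7 were still called. On log2(CPM + 1), which understates changes from low levels, Tgtp1 rose by 9.27 in place of 10.66, Iigp1 by 10.13 in place of 10.91 and Tgtp2 by 8.46 in place of 9.22. The 7 genes together went to between 11940 and 14590 CPM, or from 0.00790% to 0.0119% of all reads on listed genes to 0.907% to 1.155%. In bulk RNA, a change in the number of cells and a change in RNA per cell cannot be told apart. The 10 monocyte markers summed to 22790 to 24950 CPM without and 8489 to 10340 CPM with the stimulus, and the part of this shift in the rise was not tested.

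Irgm1, the GMS regulator whose loss sensitizes mice to many intracellular bacteria, was at 46.6 and 43.6 CPM in NFAM1+/+ and 37.9 and 33.5 CPM in NFAM1-/- unstimulated libraries at 6 h. In stimulated libraries it was at 2485 and 2737 CPM in NFAM1+/+ and 2879 and 2937 CPM in NFAM1-/-. Every stimulated library lay far above every unstimulated one, and the log2 fold change was 6.10 ± 0.10 (SE, 4 libraries against 4, limma adjusted p = 1.243e-15). Irgm2, a regulator of the same class, rose from 9.43 to 13.5 CPM to 914 to 1085 CPM, a log2 fold change of 6.48 ± 0.11. These were the smallest rises of the family.

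Igtp rose most among the regulators. It was at 11.2 and 8.16 CPM in NFAM1+/+ and at 6.91 and 6.30 CPM in NFAM1-/- without stimulus. With the stimulus it was at 2046 and 2453 CPM in NFAM1+/+ and at 2675 and 2763 CPM in NFAM1-/-. The groups were separate and the log2 fold change was 8.28 ± 0.09 (limma adjusted p = 6.398e-17), the smallest adjusted p of the 7.

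Among the effectors, Iigp1, Tgtp1 and Tgtp2 rose from the lowest levels of the family, and Ifi47 from a level in the range of Irgm2 and Igtp. Iigp1, a dynamin-like GTPase that assembles on the parasite vacuole, was at 2.13 and 1.32 CPM in NFAM1+/+ and at 1.27 and 1.08 CPM in NFAM1-/- without stimulus. With it the gene was at 2199 and 2859 CPM in NFAM1+/+ and at 3005 and 2849 CPM in NFAM1-/-. This was a log2 fold change of 10.91 ± 0.20, the 13th largest rise among the genes tested. Tgtp1 went from 0.389 to 0.997 CPM to 894 to 1072 CPM (log2 fold change 10.66 ± 0.21), and Tgtp2 from 0.957 to 2.99 CPM to 785 to 967 CPM (9.22 ± 0.25). The reads of this pair cannot be divided with certainty, but within the counts as deposited the ratio of Tgtp1 to Tgtp2 was 0.333 to 0.530 without and 1.10 to 1.14 with the stimulus. Ifi47 was at 14.4 and 12.8 CPM in NFAM1+/+ and 12.0 and 8.05 CPM in NFAM1-/-, and at 2613 and 2768 CPM in NFAM1+/+ and 2914 and 2926 CPM in NFAM1-/- with stimulus. Its log2 fold change was 7.92 ± 0.12, and the groups did not overlap.

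**Figure D1:**
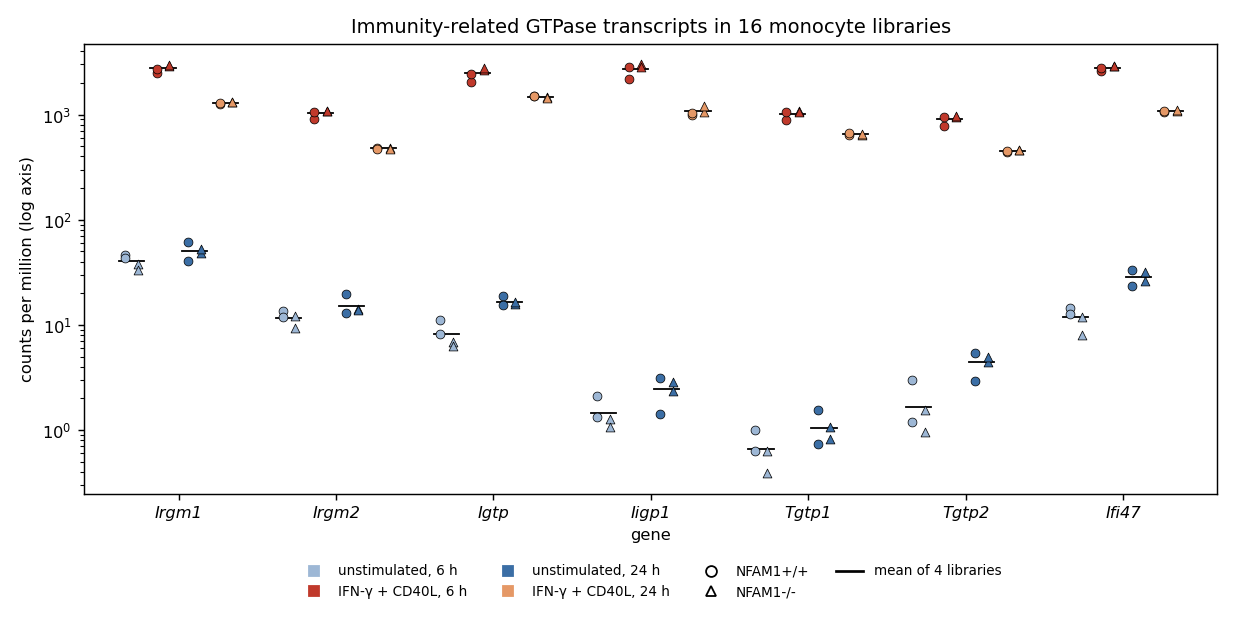
CPM of the 7 immunity-related GTPase genes (log axis) in 16 monocyte libraries; colours mark stimulus and time, circles are NFAM1+/+ and triangles NFAM1-/- by title, and the black lines are means of 4 libraries. For every gene the 8 stimulated libraries lie above the 8 unstimulated ones, with the 6 h stimulated libraries highest.

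The order of levels was rearranged by the stimulus. Levels per kb again used the exon of coding transcripts. Igtp (1012 to 1366), Irgm1 (1078 to 1274) and Ifi47 (1057 to 1183 CPM per kb) were highest at 6 h and did not differ beyond their spread. Iigp1 came next at 703 to 961 CPM per kb, below all 3. Tgtp2 (279.5 to 344), Tgtp1 (279 to 334.5) and Irgm2 (248 to 294) were lowest and overlapped one another. How reads that fit both Tgtp1 and Tgtp2 were counted is not stated, so the places of this pair are uncertain. Irgm2 thus went from the middle of the order to its end, and Iigp1 from near the end to the middle. Irgm1 and Iigp1 would stand lower over all annotated exon, so their places in the order hold for this length only.

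The balance of regulators and effectors moved with it. The sum of the 3 GMS genes over the sum of the 4 GKS genes, taken within each library so that no scaling enters, was 3.48 to 4.71 without the stimulus at 6 h and 0.820 to 0.869 with it. At 24 h it was 2.04 to 2.42 without and 0.934 to 1.04 with the stimulus. The 4 conditions did not overlap. Reads were not corrected for length here, so the ratio compares conditions and not the levels of the classes. Irgm1 supplied 19.7% to 20.8% of the family's reads in stimulated libraries at 6 h, and Iigp1 18.4% to 20.6%, against 1.66% to 2.32% without stimulus. The members of a class did not all move together. The share of the regulator Igtp was 9.54% to 12.2% without and 17.1% to 18.9% with the stimulus at 6 h.

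**Figure D2:**
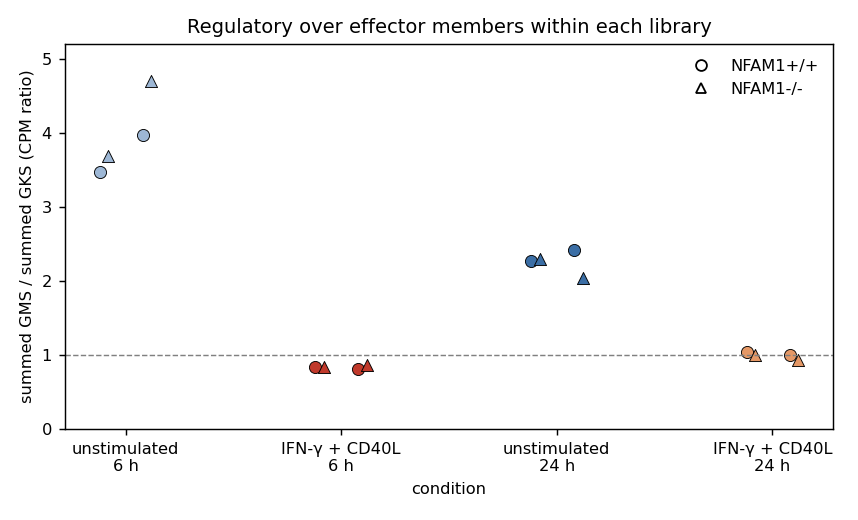
Ratio of summed GMS (Irgm1, Irgm2, Igtp) to summed GKS (Iigp1, Tgtp1, Tgtp2, Ifi47) CPM in each of 16 libraries by condition; circles are NFAM1+/+ and triangles NFAM1-/- by title, and the dashed line marks equal sums. The ratio was 3.48 to 4.71 without stimulus at 6 h and 0.820 to 0.869 with it, and the 24 h conditions lie between these.

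At 24 h the 7 genes were also higher with the stimulus, and again all 7 were called, where 14.6% of genes tested were called higher. Log2 fold changes were 4.69 ± 0.10 for Irgm1, 5.0 ± 0.11 for Irgm2, 6.48 ± 0.09 for Igtp, 8.84 ± 0.20 for Iigp1, 9.34 ± 0.21 for Tgtp1, 6.72 ± 0.25 for Tgtp2 and 5.25 ± 0.12 for Ifi47. Adjusted p ranged from 1.298e-15 to 9.114e-12 by limma. Tgtp1 now had the largest estimated rise of the 7 genes, the 11th largest among genes tested, whereas Iigp1 was 26th. Their order was not resolved, since the intervals of the limma fit overlapped (8.88 to 9.79 for Tgtp1 and 8.41 to 9.28 for Iigp1). Over the alternative ways of processing, Tgtp1 ranged from 8.33 to 9.52 and Iigp1 from 8.32 to 9.17. The estimates of Tgtp1 and Tgtp2 also depend on the uncertain split of reads between them. The 4 stimulated libraries were close together at this time. Igtp was at 1493 and 1520 CPM in NFAM1+/+ and 1478 and 1440 CPM in NFAM1-/- libraries, and Irgm1 at 1272 and 1289 against 1306 and 1309 CPM. Iigp1 varied most, at 996 and 1041 against 1061 and 1217 CPM.

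The rise was smaller at 24 h than at 6 h for all 7 genes. The difference of the log2 fold changes was -1.33 ± 0.30 for Tgtp1, -1.41 ± 0.14 for Irgm1, -1.48 ± 0.15 for Irgm2, -1.80 ± 0.13 for Igtp, -2.07 ± 0.29 for Iigp1, -2.50 ± 0.35 for Tgtp2 and -2.67 ± 0.17 for Ifi47. All 7 were called lower in limma's interaction test (adjusted p 1.476e-08 to 0.001384), where 18.2% of genes tested were called lower. With quantile normalization 4 of the 7 were called. The labels give no batch, and a batch that followed time cannot be told apart from time.

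**Figure D3:**
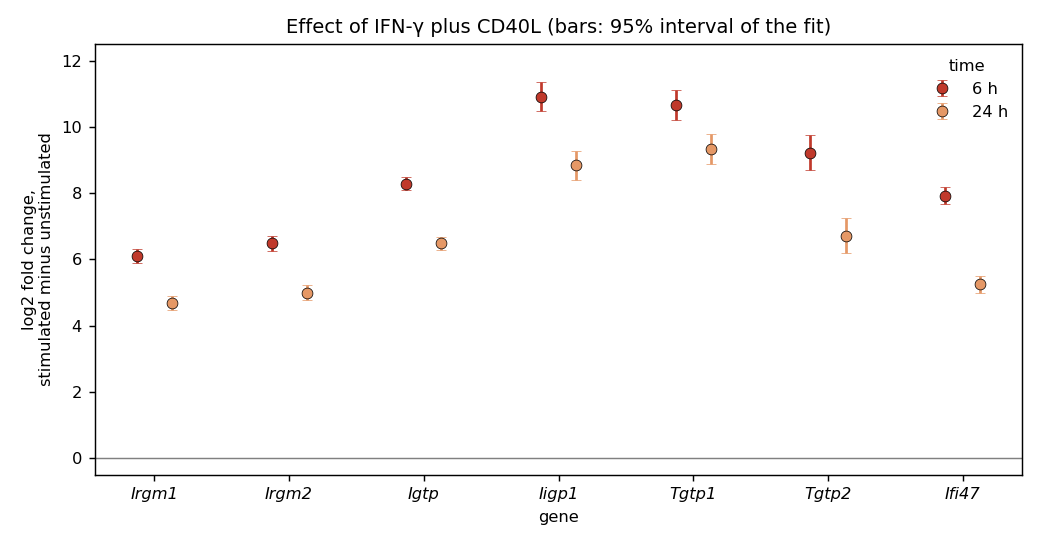
Log2 fold change of stimulated over unstimulated libraries for the 7 genes at 6 and 24 h, each from 4 libraries against 4; bars are 95% intervals of the limma fit. Every gene lies above 4 at both times and is lower at 24 h than at 6 h.

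In stimulated libraries the genes stood lower at 24 h than at 6 h. The sum of the 7 genes was 11940 to 14590 CPM at 6 h and 6415 to 6668 CPM at 24 h. For each gene the 4 libraries at 24 h lay below the 4 at 6 h. Irgm1 (-1.09 ± 0.10), Irgm2 (-1.11 ± 0.11), Iigp1 (-1.33 ± 0.20) and Ifi47 (-1.36 ± 0.12) were called lower on the log2 scale, where 17.2% of genes were. Igtp (-0.74), Tgtp1 (-0.65) and Tgtp2 (-0.99) had adjusted p of 5.066e-06, 0.01263 and 0.002162 in limma but missed the minimum fold. These calls depended on the scaling. The deposited scaling sets reads over scaled library size at 1.24 to 1.32 in stimulated libraries at 6 h and 0.970 to 0.997 at 24 h. When libraries were scaled by their own read totals, the differences ran from -0.99 to -0.28 and none of the 7 passed the minimum fold, while the median of all genes moved from 0.04 to 0.41. With quantile normalization they ran from -0.83 to -0.16, and again none was called.

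In unstimulated libraries the family moved the other way. Tgtp2 (1.5 ± 0.25), Ifi47 (1.31 ± 0.12) and Igtp (1.06 ± 0.09) were called higher at 24 h than at 6 h, where 13.2% of genes tested were called higher. The call of Igtp was lost on log2(CPM + 1) (0.97), with the 4 libraries of disagreeing labels left out (0.98), and without NFAM1+/+ replicate 2 (0.95) or 44 (0.99). Irgm1 (0.32), Irgm2 (0.37), Iigp1 (0.74) and Tgtp1 (0.68) had adjusted p of 0.005658 to 0.01233 in limma and a change below the minimum fold. Ifi47 was at 33.6 and 23.5 CPM in NFAM1+/+ and 26.2 and 32.1 CPM in NFAM1-/- libraries at 24 h, all above the 8.05 to 14.4 CPM at 6 h. For Iigp1 the ranges overlapped, at 1.43 to 3.16 CPM against 1.08 to 2.13 CPM. Neutrophil and dendritic cell markers were also higher in these libraries at 24 h (544 to 942 against 72.9 to 229 CPM, and 90.4 to 190.5 against 31.4 to 42.5 CPM), and their part in the change was not tested.

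Most other listed IRG-family genes also rose with the stimulus. Of 10 listed genes, 8 were called higher and none lower at 6 h (19.1% and 20.6% of all genes tested), with a median log2 fold change of 6.92 where that of all genes was -0.13. Gm4951 (11.14 ± 0.38), F830016B08Rik (11.13 ± 0.53), Gm4841 (10.76 ± 0.29) and Gm12185 (10.28 ± 0.23) had estimates near those of Iigp1 and Tgtp1. Without stimulus at 6 h, however, Gm4951 held 6 to 38 reads, F830016B08Rik 0 to 10, Gm4841 4 to 18 and Gm12185 26 to 95. Rises from so few reads depend on the 0.5 reads added, and their size is uncertain. With the stimulus Gm4951 reached 315 to 332 CPM, F830016B08Rik 92 to 129 CPM and Gm4841 120 to 198 CPM, against 2199 to 3005 CPM for Iigp1. Gm12250, which encodes the effector Irgb10 and is annotated as a processed pseudogene in GENCODE vM21, rose by 7.96 ± 0.12. Gm5431 (5.87 ± 0.13), 9930111J21Rik1 (3.65 ± 0.15) and 9930111J21Rik2 (3.59 ± 0.11) rose by less than each of the 7 genes. The genes of this list not called were Irgc1 (0.89 ± 0.37, at 0.168 to 0.847 CPM) and Irgq, whose estimate was negative (-0.94 ± 0.10). At 24 h 9 were called higher, where 14.6% of genes tested were called higher and 18.7% lower, with a median of 4.33. In stimulated libraries 5 of the 10 were called lower at 24 h than at 6 h, from -1.89 ± 0.23 for Gm12185 to -1.12 ± 0.12 for Gm12250. Irgc1 (1.06 ± 0.37) and Irgq (1.34 ± 0.10) were called higher, where 16.5% of genes tested were. Gm4841, Gm4951 and F830016B08Rik were not called (0.02 ± 0.29, -0.10 ± 0.38 and -0.34 ± 0.53).

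All 11 guanylate-binding protein genes were called higher at both times, where 19.1% of genes tested were at 6 h and 14.6% at 24 h. Their median log2 fold change was 9.85 at 6 h and 8.34 at 24 h, with the smallest rises of 7.80 for Gbp3 at 6 h and 5.56 for Gbp9 at 24 h. Among 15 genes of the IFN-γ receptor pathway, 10 were called higher and 1 lower at 6 h (19.1% and 20.6% of genes tested), and 11 and 1 at 24 h (14.6% and 18.7%). Socs1, the feedback inhibitor of Jak kinases, rose by 9.43 ± 0.23, Irf1 by 6.50 ± 0.06 and Jak2 by 3.25 ± 0.07 at 6 h. The gene called lower was Ifngr1, the ligand-binding receptor chain (-2.38 ± 0.05 at 6 h and -1.84 ± 0.05 at 24 h), and Jak1 (0.62 at 6 h) was not called.

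The last list held genes of ATG8 conjugation, which IRG loading needs, and of adaptors and ubiquitin ligases that work with ATG8 proteins or at the vacuole. Of its 20 genes, 4 were called higher and 2 lower at 6 h, where 19.1% and 20.6% of genes tested were. At 24 h 7 were called higher and 0 lower, where 14.6% and 18.7% of genes tested were. The medians were 0.11 and 0.46, against -0.13 and 0.007 for all genes. At 6 h Trim21 (4.79 ± 0.07) and Optn (3.11 ± 0.08), which take part in ubiquitin-dependent targeting, Tax1bp1 (1.25 ± 0.06) and Atg10 (1.54 ± 0.18) were called higher. Gabarapl1 (-1.78 ± 0.08) and Calcoco1 (-1.98 ± 0.09) were called lower. Unlike Atg10, the conjugation genes Atg3 (0.10), Atg5 (-0.31), Atg7 (-0.43), Atg12 (0.23) and Atg16l1 (0.66) changed by less than the minimum fold at 6 h. Of these conjugation genes, Atg5 (1.04 ± 0.06) and Atg10 (1.01 ± 0.18) were called higher at 24 h.

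**Figure D4:**
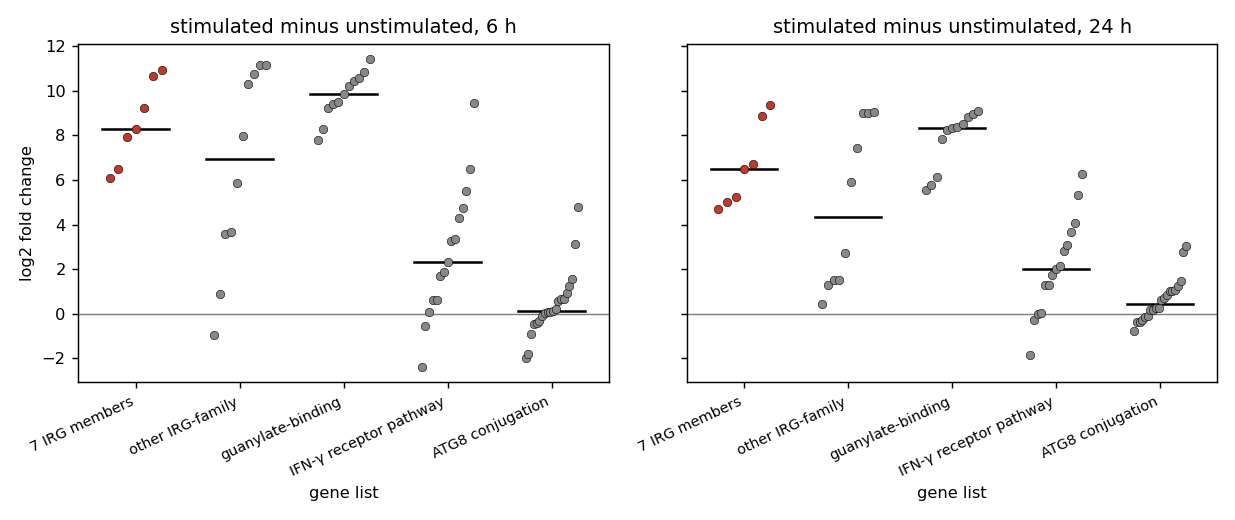
Log2 fold change of stimulated over unstimulated libraries at 6 h (left) and 24 h (right) for the 7 genes (red) and for 10 other IRG-family genes, 11 guanylate-binding protein genes, 15 IFN-γ receptor pathway genes and 20 ATG8 conjugation and adaptor genes (grey); each point is a gene and each line the median of its list. The medians at 6 h are 8.28, 6.92, 9.85, 2.34 and 0.11 in that order.

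Across the 16 libraries the members followed one another closely, with Pearson's r of at least 0.99 on log2 CPM for each of the 21 pairs. Among the genes most like the members' mean were Gm12250 (r = 0.9992), Gbp3 (0.9982), Irf1 (0.9977) and Rnf114 (0.9977). These values are a description. The stimulus splits the libraries into separate clusters, and 105 of the 12775 other genes tested had an r above 0.99.

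NFAM1-/- and NFAM1+/+ libraries were then compared at each stimulus and time. No member was called by limma in any of the 4 comparisons or in the interaction of stimulus and genotype at either time. At 6 h without stimulus all 7 estimates were negative, from -0.68 for Tgtp1 to -0.24 for Irgm2, with a median of -0.52 where that of all genes was 0.005. Both NFAM1-/- libraries lay below both NFAM1+/+ libraries for Irgm1, Igtp, Iigp1, Tgtp1 and Ifi47. That was 5 of the 7 genes, where 20.3% of all genes tested lay that way. Unadjusted p was under 0.05 for 4 of the 7 and for 1289 of the 12782 genes (10.1%). Igtp came nearest to a call, with a log2 difference of -0.54 ± 0.13 (95% interval -0.82 to -0.26, limma adjusted p = 0.127). Only 11 genes (0.0861%) were called in this comparison.

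The size of this difference rested on single libraries. NFAM1+/+ replicate 1 had the highest value of the 4 for all 7 genes, and NFAM1-/- replicate 4 the lowest. Without NFAM1+/+ replicate 1 the difference was -0.31 for Igtp and 0.03 for Tgtp2, and without NFAM1+/+ replicate 2 it was -0.76 and -1.29. Leaving out NFAM1-/- replicate 4 gave -0.33 for Tgtp1 in place of -0.68. Counts were lowest for Tgtp1, Iigp1 and Tgtp2, whose intervals were the widest.

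In stimulated libraries at 6 h the estimates were positive for all 7 genes, from 0.12 for Ifi47 to 0.28 for Igtp, and none was called. No gene of the 12782 (0%) was called in this comparison, and 1862 (14.6%) had an unadjusted p under 0.05, with no member among them. For Irgm1, Irgm2, Igtp, Tgtp1 and Ifi47 both NFAM1-/- libraries lay above both NFAM1+/+ ones, where 23.5% of all genes did. NFAM1+/+ replicate 26 had the lowest value for all 7 genes. The interval for Igtp ran from 0.00 to 0.56 and that for Irgm1 from -0.13 to 0.45, so a difference of 2-fold lay outside the interval for both. It lay outside for Irgm2, Iigp1, Tgtp1, Tgtp2 and Ifi47 as well, whose upper bounds were 0.47 to 0.89.

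The response to the stimulus at 6 h was larger in NFAM1-/- than in NFAM1+/+ libraries by 0.37 to 0.82 on the log2 scale, which was not called for any member. This value joins the genotype difference without stimulus (-0.68 to -0.24) and that with it (0.12 to 0.28). For every member the difference without stimulus, whose size rested on single libraries, was the larger part. Igtp rose by 7.87 ± 0.13 in NFAM1+/+ and 8.69 ± 0.13 in NFAM1-/- libraries, a difference of 0.81 ± 0.18 (95% interval 0.42 to 1.21, limma adjusted p = 0.302). Without NFAM1+/+ unstimulated replicate 2 this difference was 1.04 with an adjusted p of 0.037, and Igtp was then called. Without NFAM1+/+ stimulated replicate 10 it was 0.95 with an adjusted p of 0.0349, short of the minimum fold. Over the alternatives that kept all 16 libraries, its adjusted p ranged from 0.294 to 0.658. No gene was called in the interaction at 6 h, and 1090 of 12782 (8.53%) had an unadjusted p under 0.05, Irgm1, Igtp and Ifi47 among them.

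At 24 h the genotype estimates by title were close to 0 in stimulated libraries, from -0.05 for Igtp to 0.16 for Iigp1. By the genotype tag they ran from -0.13 to 0.03, and with the 4 disputed libraries left out from -0.04 to 0.04. In unstimulated libraries they ran from -0.19 for Tgtp1 to 0.28 for Iigp1 by title, with 4 of 7 above 0. By the tag all 7 were above 0, from 0.11 for Ifi47 to 0.72 for Tgtp1, and with the disputed libraries left out from 0.05 to 0.70. None was called under any of the 3 groupings. By title 37 genes (0.289%) were called without stimulus and 74 (0.579%) with it, and 1397 (10.9%) and 1988 (15.6%) had an unadjusted p under 0.05, with no member among them. Among the unstimulated libraries, replicate 44 was highest and replicate 45 lowest for all 7 genes. By title both are NFAM1+/+, and the NFAM1-/- libraries lay between them. The tag names replicate 44 as NFAM1-/- and replicate 46 as NFAM1+/+, so this order does not hold by the tag. The difference in response at 24 h ran from -0.21 for Tgtp2 to 0.19 for Tgtp1, and no member was called, where 35 genes (0.274%) were and 1562 genes (12.2%) but no member had an unadjusted p under 0.05.

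**Figure D5:**
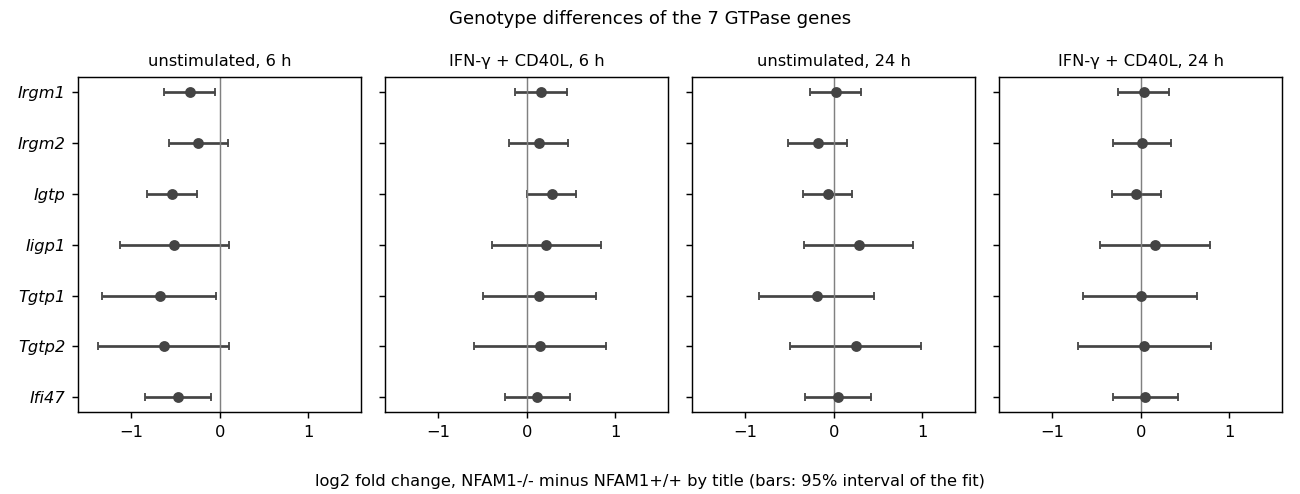
Log2 fold change of NFAM1-/- over NFAM1+/+ (by title) for the 7 genes at each stimulus and time, 2 libraries against 2; bars are 95% intervals of the limma fit. The estimates are -0.68 to -0.24 without and 0.12 to 0.28 with the stimulus at 6 h, and -0.19 to 0.28 and -0.05 to 0.16 at 24 h.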

How the data were processed

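The authors sequenced non-stranded TruSeq polyA libraries on a HiSeq2000 and deposited log2 CPM for 13085 genes. STAR aligned the reads, Rsubread counted them and edgeR scaled them, according to the labels and methods, on GRCm39 per the submitters' notes. Tool versions are not given in the sources used here. Every deposited log2 value came out as a whole read number (with 0.5 added) relative to a scaled library size, and so reads were recovered. The margin allowed was 0.01 reads, or wider in proportion to the count for large counts. Replicates within a group differed by more than sampling noise.

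Groups follow the title of each library (8 groups of 2). The 16 libraries entered 1 limma fit (limma 3.58.1, R 4.3.3) of the log2 CPM, without covariates, with 8 residual degrees of freedom and a variance prior trended on expression. A gene was tested if 2 or more libraries reached 1 CPM (12782 genes, all 7 members included). Tests were two-sided. Calls required a 2-fold change and an adjusted p (Benjamini-Hochberg) under 0.05, as in the study. Fold changes are on the log2 scale with 0.5 reads added. Alternatives were other scalings and filters, log2(CPM + 1), other variance priors, voom weights from recovered reads, only the groups compared, the genotype tag at 24 h, and leaving out libraries. Count models were not run, since the unit is log2 CPM. The fit was tested on simulated data.

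Among the listed symbols 17 had become dates and 1 occurred more than once, none of them members. Depth was 48295939 to 88514341 reads per library, and a permutation test of 2 libraries against 2 cannot go below 0.333. Positions, overlaps, exon lengths and shared 101-base stretches came from GENCODE vM21 on GRCm38, and promoters from RefSeq on GRCm38.p6. Levels per kb divide by the joined exon length of coding transcripts. The named genes are the 7 members, 4 lists of related genes and the 5 genes most like the members' mean, of which 1 is not reported here. Members and lists were chosen with earlier results of these data known.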

Additional observations from a re-analysis of the deposited data

Results flagged for a closer look

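For all 7 genes the response to the stimulus differed between 6 and 24 h by a test of the difference itself, the limma interaction of stimulus and time. The response at 24 h minus that at 6 h, on the log2 scale, was -1.41 ± 0.14 (SE) for Irgm1, -1.48 ± 0.15 for Irgm2, -1.80 ± 0.13 for Igtp, -2.07 ± 0.29 for Iigp1, -1.33 ± 0.30 for Tgtp1, -2.50 ± 0.35 for Tgtp2 and -2.67 ± 0.17 for Ifi47. The sum of the 7 genes fell in stimulated libraries (11940 to 14590 CPM at 6 h, 6415 to 6668 CPM at 24 h). It was higher at 24 h in unstimulated ones (59.7 to 91.8 CPM against 97.7 to 143 CPM). The median of this difference over all genes tested was 0.04. With quantile normalization Irgm1 and Irgm2 (-0.94 each) and Tgtp1 (-0.56) were not called, and Tgtp1 was not called with each library's own total (-0.93) or on log2(CPM + 1) (-0.94) either.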

How the results depend on the processing

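All 7 genes were called higher at 6 and at 24 h under every alternative run, with log2 fold changes of 5.37 (Irgm1) to 11.08 (Iigp1) at 6 h. No paired analysis was possible because each library carries a replicate number of its own, so groups share none and no replicate block can be fitted. In stimulated libraries 0 of 7 genes were called lower at 24 h with each library's own total or with quantile normalization, and 7 with no minimum fold change. In unstimulated libraries 7 were called with no minimum fold change. The response differed between times for 4 genes with quantile normalization. Leaving out each library in turn gave 0 to 1 genes with a genotype difference in response at 6 h, 4 to 5 lower with time when stimulated and 2 to 4 higher with time when unstimulated. Igtp lost its call in the last comparison without NFAM1+/+ replicate 2 (0.95) or 44 (0.99), on log2(CPM + 1) (0.97) and with the disputed libraries left out (0.98). Iigp1 gained one without replicate 45 (1.03), and Tgtp2 gained one when stimulated without replicate 26 (-1.06) or 11 (-1.0), or with median centring (-1.17). The own-total scaling moved the median of all genes from -0.13 to -0.86 and the share of calls that were higher from 48.1% to 21.9% at 6 h, and from 43.9% to 30.4% at 24 h.

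Signs turned in genotype comparisons at 24 h, and 1 at 6 h, none of them called. Without stimulus at 24 h the tag gave 0.30 for Irgm2, 0.12 for Igtp and 0.72 for Tgtp1, and leaving out the disputed libraries 0.12, 0.05 and 0.53. With stimulus the tag gave -0.01 for Irgm1, 0.03 for Igtp, -0.13 for Iigp1, -0.01 for Tgtp2 and -0.02 for Ifi47, own totals 0.03 for Tgtp1, quantile normalization 0.07 for Igtp and 0.03 for Tgtp1, and median centring 0.00 for Irgm2. For the difference in response at 24 h the tag gave -0.24 for Irgm1, -0.27 for Irgm2, -0.09 for Igtp, -0.76 for Tgtp1 and -0.13 for Ifi47, and leaving out the disputed libraries -0.23, -0.08, -0.07, -0.57 and -0.13. Quantile normalization gave 0.03 for Iigp1, and centring -0.02 for Irgm1, -0.01 for Igtp and -0.03 for Ifi47. The cause was not tested. Leaving out 1 library at a time, the values without stimulus at 24 h ranged from -0.27 to 0.31 for Irgm1, -0.48 to 0.11 for Irgm2, -0.21 to 0.07 for Igtp, -0.29 to 0.85 for Iigp1, -0.72 to 0.34 for Tgtp1, -0.20 to 0.69 for Tgtp2 and -0.21 to 0.31 for Ifi47. With stimulus they ranged from -0.01 to 0.03 for Irgm2 and -0.03 to 0.03 for Tgtp1. The difference in response ranged from -0.28 to 0.30 for Irgm1, -0.10 to 0.49 for Irgm2, -0.12 to 0.16 for Igtp, -0.69 to 0.45 for Iigp1, -0.35 to 0.72 for Tgtp1, -0.65 to 0.24 for Tgtp2 and -0.26 to 0.26 for Ifi47. At 6 h without stimulus the range for Tgtp2 was -1.29 to 0.03.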
